A study of Caenorhabditis elegans with 4 samples.

Results

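Broad CHD-3 domains were the widest regions that chromatin immunoprecipitation with sequencing (ChIP-seq) found in 1 library of adult Caenorhabditis elegans. A broad domain is a peak of ChIP replicate 1 on 1 of the 6 nuclear chromosomes with a width of 5000 bp or more. The domains were chosen by that width alone, so their widths and scores in replicate 1 are descriptions. The rule found 422 broad domains among the 4822 nuclear peaks of replicate 1, which is 8.75% of them (95% exact interval 7.97 to 9.58%). The other 4400 peaks of replicate 1 are called narrower peaks. The domains spanned 3.42 Mb, or 3.41% of the nuclear genome, and the narrower peaks 8.48 Mb, or 8.46%.

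The study used 2 ChIP libraries, made with an affinity-purified rabbit polyclonal antibody raised against CHD-3, and 2 input libraries. All 4 came from hermaphrodite young adults of the strain fem-2(b245), genotype fem-2(b245)III, which contained a germline and were kept at 20 °C. The stage label gives young adults, while the growth protocol speaks of gravid adults. There was no wild-type or chd-3 mutant group, so each library carries the fem-2 mutation, and the input libraries entered no comparison here. Each ChIP library had its own peak list, and a series-level list covered the whole series, with 1889 and 10512 nuclear peaks in replicate 2 and the series-level list. Whole animals were used, so the lists mix germline and somatic tissues, and no list says in which cells a domain was occupied. The labels do not say whether the libraries came from separate cultures.

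CHD-3 belongs to the Mi-2 family of ATPases that remodel chromatin. Proteins of this family carry PHD fingers and chromodomains beside their ATPase domain, and they are the motor subunits of NuRD complexes, which join nucleosome remodelling to histone deacetylation. The worm has another Mi-2 protein, LET-418, which acts in keeping germline and somatic fates apart. A wide peak can be a stretch of unbroken occupancy or several sites that the peak caller joined, and peak lists alone do not tell these apart. Read coverage was not analysed here, and the depth of the libraries is unknown. Coordinates are in the WS220 build. No genome of that build was used, so the domains are given by position, without genes or sequence.

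Most broad domains were also found in replicate 2, the library that played no part in choosing them. A replicate 2 peak overlapped 353 of the 422 domains by at least 1 bp, or 83.6% (79.8 to 87.0%), and 1124 of the 4400 narrower peaks, or 25.5% (24.3 to 26.9%). Over all replicate 1 peaks this share was 30.6%. The widest replicate 2 peak that met each of the 353 domains had a median width of 2896 bp and an upper quartile of 4035 bp. A wide region meets another list more easily, so each share was set against windows of the same widths placed at random on the same chromosome, counted exactly over every start position. Such windows would meet a replicate 2 peak in 16.6% of cases at the widths of the broad domains and in 7.36% at those of the narrower peaks. The observed share was 5.05 times that of random placement for broad domains and 3.47 times for narrower peaks. Random placement takes no account of chromosome arms or of how well reads map.

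The share with a replicate 2 peak was higher in each wider class of replicate 1 peaks. It was 4.13% of the 121 peaks under 1 kb, where random placement gave 5.75%, and 50.2% of the 400 peaks of 3 to 4 kb. In the class just below the limit, 4 to 5 kb, it was 68.3% (61.8 to 74.2%). It then was 74.0% (65.7 to 81.3%) of the 131 domains of 5 to 6 kb, 82.3% of 113 domains of 6 to 7.5 kb, and 90.3% of 103 domains of 7.5 to 10 kb. Of the 75 domains of 10 kb or more, 70 had a replicate 2 peak, or 93.3% (85.1 to 97.8%). The intervals of the classes next to the 5 kb limit overlap, so no step was seen there.

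**Figure D1:**
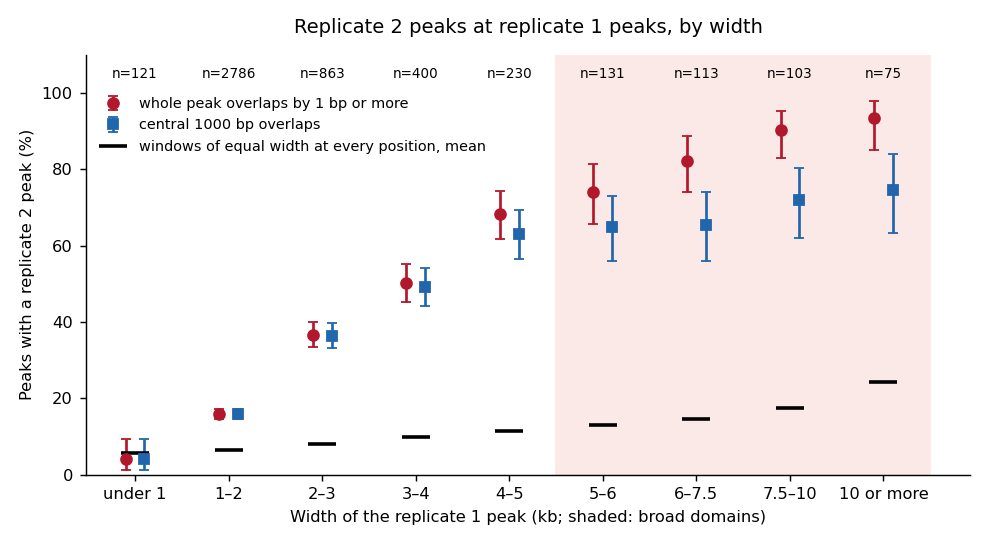
Share of replicate 1 peaks with a replicate 2 peak (y, %) by width of the replicate 1 peak (x, kb); circles are whole peaks, squares the central 1000 bp, black dashes the mean for windows of equal width at every position, and bars 95% exact intervals. The circles climb from 4.13% to 93.3%, while the squares of the 4 broad classes lie between 64.9% and 74.7%, close to the 63.0% of the 4 to 5 kb class.

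At equal widths the difference was smaller but of the same direction. A replicate 2 peak touched the central 1000 bp of 289 broad domains, or 68.5% (63.8 to 72.9%), and of 25% (23.8 to 26.4%) of narrower peaks. Over all replicate 1 peaks it was 28.8%, and 1000 bp windows at random positions gave 5.86% for the chromosomes of the domains. The middle base itself lay in a replicate 2 peak in 56.4% (51.5 to 61.2%) of domains and 23.6% (22.4 to 24.9%) of narrower peaks, with 26.5% over all replicate 1 peaks.

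Broad domains were also the high-scoring peaks of their list. Score bands were 3100 or more, 1000 to under 3100, and under 1000, and they were not pooled. Within each band from 1000 upwards, a replicate 2 peak met both kinds about as often by 1 bp, a measure that favours wide regions. Over the central 1000 bp and over the covered length, broad domains were met less within each of these higher bands. The score is the authors' value per peak, on a scale that no source gives. A score of exactly 3100 recurred in 316 domains, so peaks at that value cannot be ranked. A score of 3100 or more was reached by 324 broad domains, or 76.8%, and by 245 narrower peaks, or 5.57%. Among these, a replicate 2 peak overlapped 89.8% (86.0 to 92.9%) of broad domains and 91.0% (86.7 to 94.3%) of narrower peaks. Their central 1000 bp met one in 78.1% (73.2 to 82.5%) of domains and in 90.2% (85.8 to 93.6%) of narrower peaks, and replicate 2 covered 49.1% of the length of domains and 60.1% of that of narrower peaks. From 1000 to under 3100 the share by 1 bp was 62.7% (50.7 to 73.6%) of 75 domains and 61.7% (58.0 to 65.4%) of 695 narrower peaks, and by the central 1000 bp 37.3% (26.4 to 49.3%) of domains and 59.9% (56.1 to 63.5%) of narrower peaks. There 27.4% of the length of domains and 36.3% of that of narrower peaks was covered. Under 1000 it was 65.2% (42.7 to 83.6%) of 23 domains and 13.6% (12.5 to 14.8%) of 3460 narrower peaks, whose median width was 1418 bp against 8611 bp for the domains. Score and width both come from replicate 1, so these bands describe the lists.

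Replicate 2 peaks filled part of a domain, most often its middle. They covered 1.51 Mb of the domains, 44.1% of their length, and 22.5% of the length of narrower peaks, while the whole replicate 2 list covered 3.98% of the nuclear genome. The domains thus held 37.8% of all the length that replicate 2 peaks covered. The median domain was covered to 44.5% (quartiles 23 and 61.6%). At least 50% was covered in 185 domains, or 43.8% (39.0 to 48.7%), and in 21.0% (19.8 to 22.2%) of narrower peaks, with 23% over all replicate 1 peaks. Coverage of 75% or more was reached by 9.95% (7.27 to 13.2%) of domains and 11.8% (10.9 to 12.8%) of narrower peaks, with 11.7% over all replicate 1 peaks, which lies inside the domains' interval.

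A single replicate 2 peak was the most common case, and 131 domains held several separate ones. There was no replicate 2 peak in 69 domains, 1 in 222, 2 in 96, 3 in 27, 4 in 5 and 5 in 3. At least 2 were found in 31.0% (26.7 to 35.7%) of domains and 0.795% (0.555 to 1.10%) of narrower peaks, where all replicate 1 peaks gave 3.44%. These shares are not at equal widths. Narrower peaks had a median width of 1591 bp and all replicate 2 peaks one of 1682 bp, which leaves most narrower peaks little room for 2. Of the 530 replicate 2 peaks that touched a domain, 516 lay wholly inside it. Replicate 2 peaks centred in a broad domain had a median width of 2258 bp, against 1512.5 bp for those centred in a narrower peak, and 9.83% (7.43 to 12.7%) and 0.176% (0.0213 to 0.633%) of them were themselves 5000 bp or wider. Those centred in no replicate 1 peak had a median width of 1751 bp, and 7.21% (4.18 to 11.4%) of them were that wide, an interval that overlaps that of the domains. Over all replicate 2 peaks this share was 3.71%. Narrower peaks are under 5000 bp by the rule, which leaves little room in them for a replicate 2 peak that wide. In 221 cases a domain and a replicate 2 peak matched one-to-one. There the replicate 2 peak spanned a median of 41.4% of the domain's width, its midpoint lay a median of 894 bp from that of the domain, and in 4 cases the replicate 2 peak was the wider.

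**Figure D2:**
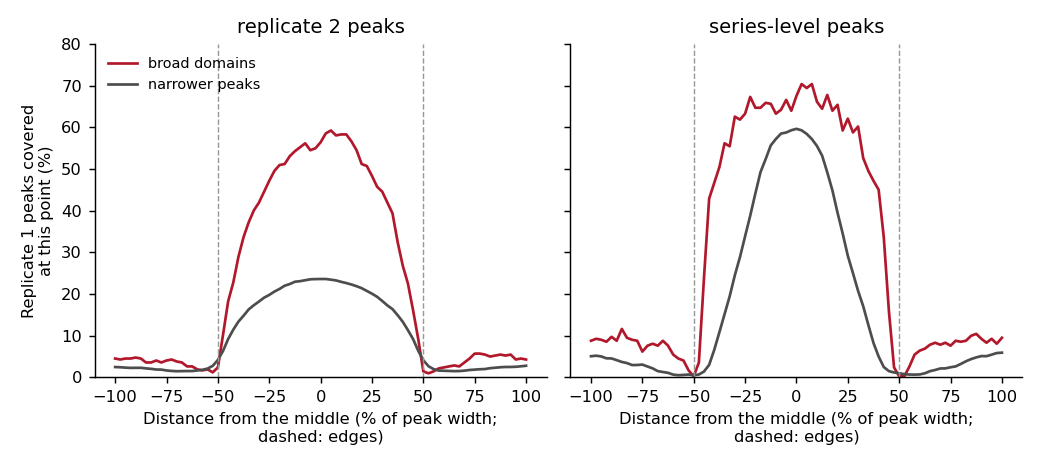
Share of replicate 1 peaks covered by replicate 2 peaks (left) and series-level peaks (right) at each point along them (y, %), by distance from the middle as a percentage of width (x; dashed lines are the edges), for broad domains (red) and narrower peaks (grey). In broad domains replicate 2 cover was 47.2% and 48.3% midway to the left and right edges and 56.4% at the middle, and series-level cover was 63.3%, 62.1% and 67.5% at the same points; in narrower peaks series-level cover was 33.8% and 29.2% midway and 59.6% at the middle.

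The widest domains differed in how much of them replicate 2 shared. The widest of all, 31166 bp on chromosome II at 6819898 to 6851063, had a score of 394.55 and a single replicate 2 peak of 3442 bp, which covered 11% of it. The domain of 27024 bp on V at 9072702 to 9099725 scored 620.76 and held 3 replicate 2 peaks over 45.0% of its length. Next in width came 23456 bp on II at 10541285 to 10564740, where 4 replicate 2 peaks covered 88.9%. On V at 10707809 to 10731219, a domain of 23411 bp held 1 replicate 2 peak of 14674 bp, and 62.7% was covered.

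Chromosome X held 4 of the 12 widest domains, and 97 of all 422. The one of 23171 bp at 11461318 to 11484488 was the most fully shared of these 4, with 5 replicate 2 peaks over 91.2% of its length. Another of 22422 bp at 12167073 to 12189494 scored 412.51 and also held 5 replicate 2 peaks, over 53.4%. Those at 3816743 to 3835042 and at 16927644 to 16945768 were covered to 73.2% by 3 peaks and to 66.7% by 1 peak of 12093 bp.

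Chromosome III held a pair of domains of nearly equal width. The one at 3862472 to 3881536 was 19065 bp wide with 34.5% covered by 3 replicate 2 peaks. The one at 6339171 to 6358233 was 19063 bp wide and had the lowest score of all broad domains, 179.89. A single replicate 2 peak covered 14.4% of it. The remaining 2 of the 12 widest, 17953 bp on II at 5325413 to 5343365 and 17826 bp on IV at 4014854 to 4032679, held 3 replicate 2 peaks each, over 62.6% and 62.1%. The widest domain of chromosome I, 17320 bp at 10747553 to 10764872, held 4 over 83.6%.

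**Figure D3:**
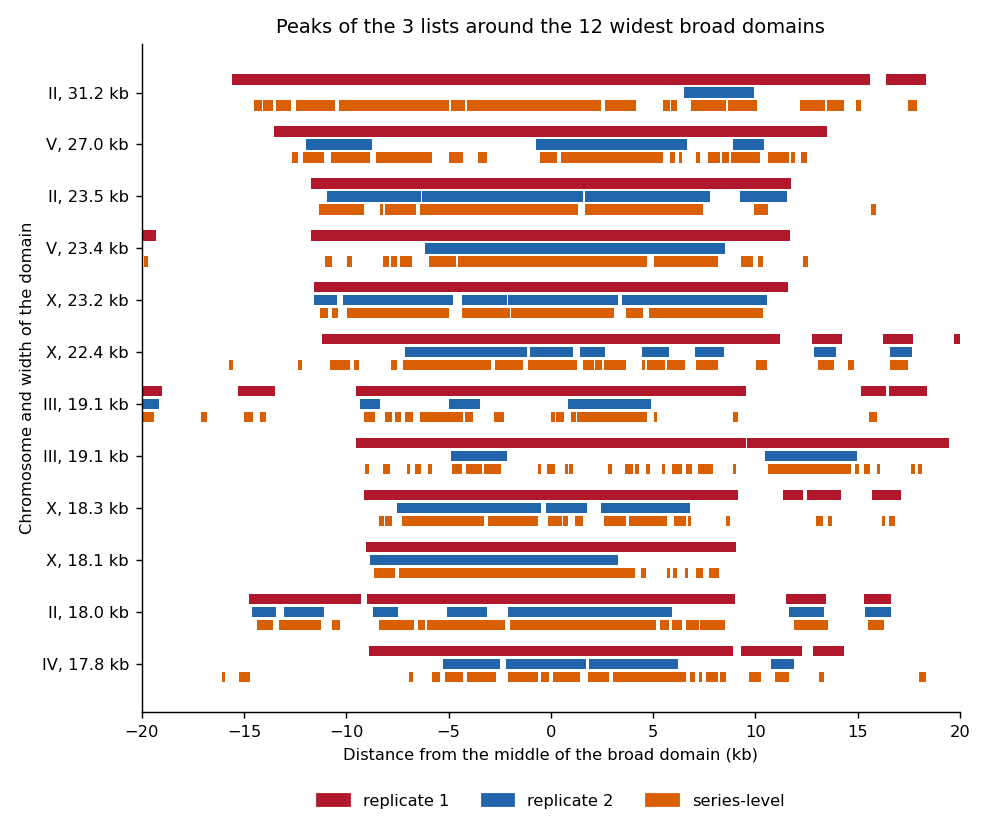
Peaks of replicate 1 (red), replicate 2 (blue) and the series-level list (orange) within 20 kb of the middle of each of the 12 widest broad domains (rows, widest at the top), by distance from the middle (x, kb). In the top row 1 replicate 2 peak covers 11% of the domain and the series-level peaks 76.3%, while in the row of the X domain of 23171 bp replicate 2 covers 91.2% and the series-level list 83.9%.

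Replicate 2 covered between 99.5 and 100% of the 5 most fully shared domains, which were 7550 to 8252 bp wide. On III at 6566565 to 6574816, a domain of 8252 bp lay inside a replicate 2 peak of 8380 bp with a score of 2518.55, although its own score was 302.42. On V at 17119516 to 17127417, a domain of 7902 bp lay inside a replicate 2 peak of 13138 bp. The domains on X at 2056623 to 2064334 and on V at 3434163 to 3441712 scored 3100 in both replicates, with replicate 2 peaks of 7840 and 7524 bp. The last of the 5, on V at 4728466 to 4736683, had scores of 230.56 in replicate 1 and 456.85 in replicate 2. Its series-level cover was 28.5%, whereas in the other 4 it was between 81.3 and 93.4%.

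No replicate 2 peak was found in 69 domains, which were narrower and scored lower than the rest. Their median width was 6037 bp and 33 of them, or 47.8% (35.6 to 60.2%), scored 3100 or more, while the 353 shared domains had a median of 7200 bp and 82.4% (78.1 to 86.3%) at that score. Series-level peaks occurred in each of the 69 but covered 37.1% of their length, against 58.6% in shared domains. The number of series-level peaks per kb was 0.737 without and 0.649 with a replicate 2 peak. The widest of the 69 was on X at 13347108 to 13360923, with 13816 bp, a score of 1645.35 and 10 series-level peaks over 46.1%. The next, on III at 5834236 to 5847234, was 12999 bp wide, scored 3100 and was covered to 70.6% by 10 series-level peaks. Those on V at 14497541 to 14508594 (11054 bp), on X at 5973137 to 5983771 (10635 bp) and on V at 11817520 to 11827945 (10426 bp) had 19.9, 42.9 and 50.5% series-level cover.

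Inside a broad domain the series-level list resolved several narrow peaks. It may rest on the same reads as replicate 1, so its overlap with the domains is no separate evidence for them. All 422 domains held a series-level peak, as did 87.5% (86.5 to 88.5%) of narrower peaks, with 88.6% over all replicate 1 peaks. Windows of equal width at random positions would meet a series-level peak in 42.0% of cases at the widths of domains and in 18.3% at those of narrower peaks. The observed share was 2.38 times that of random placement for domains and 4.77 times for narrower peaks. Since every domain was met, 2.38 is the highest ratio the domains could reach. The order of these ratios can therefore not be set against that in replicate 2. A domain held 5.36 series-level peaks on average (median 5, from 1 to 21), and a narrower peak 1.37. At least 5 were found in 246 domains, or 58.3% (53.4 to 63.0%), and in 1.36% (1.04 to 1.75%) of narrower peaks, where all replicate 1 peaks gave 6.35%. Per unit of length the count was close, at 0.661 per kb in domains and 0.711 in narrower peaks.

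The series-level peaks inside broad domains were wider, rather than more closely set. Their median width was 484 bp where they were centred in a domain and 363 bp where they were centred in a narrower peak. They covered 55.6% of the length of domains and 34.2% of that of narrower peaks. At least 50% was covered in 60.9% (56.1 to 65.6%) of domains and 16.0% (15 to 17.1%) of narrower peaks, and in 20% of all replicate 1 peaks. Among peaks scoring 3100 or more the covered length was 59.3% for domains and 58.4% for narrower peaks, with 0.641 and 0.635 peaks per kb. The longest stretch of a domain free of series-level peaks had a median of 1354.5 bp, or 17.1% of the width.

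Across domains the number of series-level peaks increased with width (Spearman's rho 0.58, n = 422), and the covered share did so less (0.29). The share covered by replicate 2 was almost unrelated to width (0.12) and followed the share covered by the series-level list (0.70). Among the 353 shared domains, width and that of the widest replicate 2 peak in them had a rho of 0.40. These correlations across regions are descriptions, since the lists may share reads. The most series-level peaks, 21, lay in the domain of lowest score, on III at 6339171, and none of them was wider than 845 bp. The domain on V at 9072702 and another of 15467 bp on V at 11069006 to 11084472 held 17 each, the domain on II at 6819898 held 15, and a domain of 12763 bp on II at 9480157 to 9492919 held 14.

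**Figure D4:**
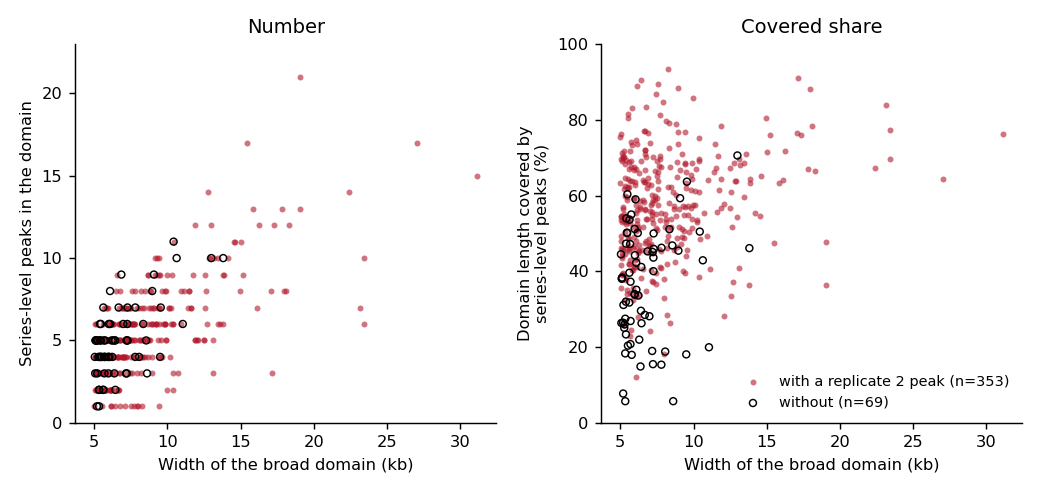
Number of series-level peaks (left) and share of length covered by them (right, %) in each of the 422 broad domains (y) by domain width (x, kb), for domains with a replicate 2 peak (filled, n = 353) and without (open, n = 69). The count reaches 21 in a domain of 19063 bp, and the open points lie low in the right panel, with 37.1% of length covered over all 69 against 58.6% for the filled ones.

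Some domains were a single stretch in every list, and some were nearly empty in the others. Series-level cover was highest in the domain on III at 6566565 (93.4%), where 1 series-level peak of 7709 bp filled it. It was 91.0%, by 3 series-level peaks, in the domain of 17163 bp on X at 6734873 to 6752035, where replicate 2 had a peak of 15852 bp. It was 90.5% on chromosome I at 13609788 to 13616224, where 1 series-level peak lay beside 2 replicate 2 peaks. It was 89.4% on V at 3434163 and 88.8% on II at 11755900 to 11762050, with 1 peak in each of these lists. The lowest cover was 5.70% on X at 17419737 to 17425071 and on II at 1145229 to 1153839. The second of these was 8611 bp wide, scored 199.54 and held 7019 bp in a row without a series-level peak. Cover was 7.72% on IV at 13323480 to 13328671, 12% on II at 14491544 to 14497605 and 14.9% on IV at 11567943 to 11574319. Of these 5 domains, that on II at 14491544 held a replicate 2 peak, of 1000 bp with a score of 50.62.

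Broad domains occurred on all 6 nuclear chromosomes. Chromosome III held 77 (5.59 per Mb), X 97 (5.47), II 61 (3.99), I 60 (3.98), V 72 (3.44) and IV 55 (3.14). Narrower peaks followed a similar order, with 51.2 per Mb on III, 49.7 on X and 35.6 on V. Domains made up 9.92% (8.12 to 12%) of the replicate 1 peaks on X, 9.83% (7.84 to 12.1%) on III and 7.54% (5.73 to 9.71%) on IV, and these intervals overlap. The density on X over that on the autosomes was 1.39 for domains and 1.17 for narrower peaks. For domains of 10000 bp or more that ratio was 1.69, and for a width limit of 4000 or 6000 bp it was 1.29. The share with a replicate 2 peak ranged from 78.4% (68.8 to 86.1%) on X to 88.3% (77.4 to 95.2%) on I.

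On the autosomes broad domains lay in the chromosome centres more often than narrower peaks did, and on X the shares were close; the difference between X and the autosomes was not tested. The autosome arms of this species are rich in repeats and recombine often, and the centres hold most highly conserved genes. Arms were taken as the outer 25% of each chromosome on each side. They held 119 domains, or 28.2% (24.0 to 32.8%), and 41.3% (39.8 to 42.8%) of narrower peaks, with 40.1% of all replicate 1 peaks. On the autosomes the arm share was 22.2% (17.8 to 27.1%) of domains and 39.8% of narrower peaks. It was lower for domains on each of them, from 18.1% against 37% on V to 30.9% (19.1 to 44.8%) against 39.0% on IV, where the interval includes the share of narrower peaks. On X it was 48.5% (38.2 to 58.8%) of domains and 47.2% of narrower peaks. Among peaks scoring 3100 or more it was 28.4% (23.5 to 33.6%) of domains and 39.6% (33.4 to 46.0%) of narrower peaks.

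Domains of the arms were shared with replicate 2 about as often as those of the centres. A replicate 2 peak was found in 85.7% (78.1 to 91.5%) of the 119 domains in arms and 82.8% (78.1 to 86.9%) of the 303 in centres. Narrower peaks had one in 31.2% of cases in arms and 21.6% in centres. Of 10 equal bins along each chromosome, the bin just left of the middle held 17.8% of domains and 12.5% of narrower peaks, and the leftmost bin 4.03% of domains and 7.89% of narrower peaks. Within 50 kb of a chromosome end lay 2 domains, on I at 38350 to 43412 and on III at 13761418 to 13769655, and both held 2 replicate 2 peaks. They were 0.474% (0.0574 to 1.70%) of domains, an interval that includes the 0.705% of narrower peaks and the 0.684% of all replicate 1 peaks.

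**Figure D5:**
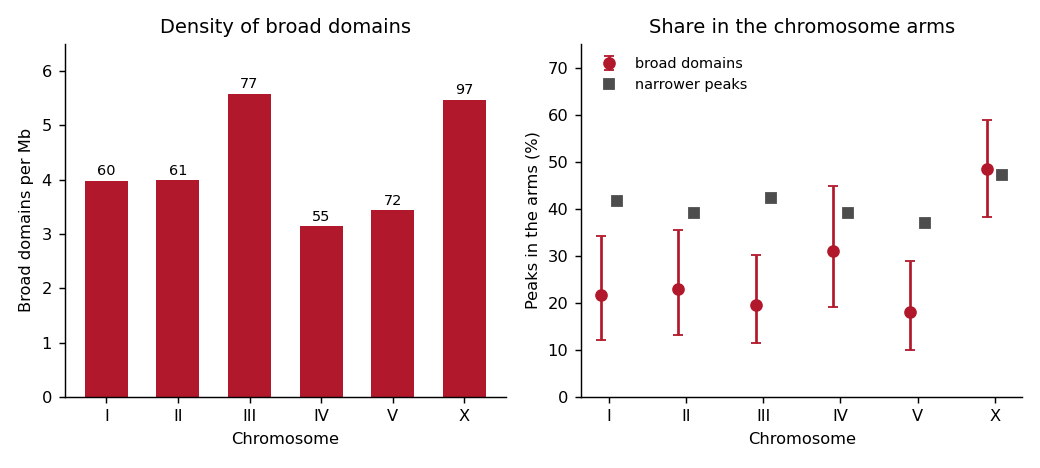
Left: broad domains per Mb (y) on each nuclear chromosome (x), with their number above the bar. Right: share of broad domains (circles, 95% exact intervals) and narrower peaks (squares) in the outer 25% on each side (y, %) of each chromosome (x); circles lie below squares on the 5 autosomes, from 18.1% against 37% on V to 30.9% against 39.0% on IV, and not on X (48.5% against 47.2%).

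Single full windows of 1 Mb held from 0 to 13 broad domains, with a median of 4 over 97 windows. The incomplete window at the right end of each chromosome was left out. The fullest was on III from 5000001 to 6000000, with 13 domains, 74 narrower peaks and 24 replicate 2 peaks. Windows on I from 7000001 to 8000000 and on III from 6000001 to 7000000 held 12 each. No domain was centred in 4 windows, on I from 11000001, II from 13000001, IV from 15000001 and V from 18000001, where 41, 54, 23 and 23 narrower peaks lay. The longest distance between neighbouring domains was 2492 kb on the right side of V, between 17127417 and 19619768, with 51 narrower peaks between them.

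The distance between the midpoints of neighbouring domains ranged from 6.6 to 2499 kb. Spacing was not set against random placement. The median distance between the midpoints of neighbours was 123.5 kb (quartiles 46.1 and 287.3 kb) for domains and 12.1 kb for the far more numerous narrower peaks, with a median of 6 narrower peaks between neighbouring domains. Another domain lay within 10 kb, edge to edge, of 89 domains, or 21.1% (17.3 to 25.3%), and within 50 kb of 49.3% (44.4 to 54.2%). In 46 neighbouring pairs no other replicate 1 peak lay between. The nearest replicate 1 peak of any width was a median of 1.97 kb away from a domain and 2.85 kb from a narrower peak. It was within 1000 bp for 38.6% (34.0 to 43.5%) of domains and 29.4% (28.1 to 30.8%) of narrower peaks.

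The closest neighbours were separated by less than the width of a typical series-level peak. On III, 71 bp separated the domain at 6339171 to 6358233 from one of 9865 bp at 6358305 to 6368169, which scored 3100 and was covered to 45.9% by replicate 2. On chromosome I, 83 bp separated the domain of 17320 bp at 10747553 from one of 9060 bp at 10764956 to 10774015, with 83.6% and 58.1% covered by replicate 2. Also on chromosome I, 129 bp separated a domain of 6292 bp at 4906295 to 4912586 from one of 6651 bp at 4912716 to 4919366. The first scored 546.83 and held no replicate 2 peak, and the second scored 3100 and was covered to 69.4%.

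Runs of domains with gaps under 20 kb held 129 domains, or 30.6% (26.2 to 35.2%). There were 46 runs of 2, 11 of 3 and 1 of 4 domains, and 293 domains stood alone. The run of 4 spanned 80.6 kb on chromosome I at 7470743 to 7551293, and all 4 domains held a replicate 2 peak. A run of 3 on II at 7612303 to 7636386 was the tightest of the runs of 3 or more, with 83.4% of its 24.1 kb inside domains, and all 3 held a replicate 2 peak. A run of 3 on X at 6638638 to 6669355 held no replicate 2 peak in any of its 3 domains, although these held 13 series-level peaks. The runs, the windows and the pairs follow from the replicate 1 list alone and have no replicate of their own.

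Replicate 2 had 70 peaks of 5000 bp or more of its own, and most of them met a broad domain. Of these, 52 did, or 74.3% (62.4 to 84.0%), where windows of their widths at random positions would in 6.53% of cases. Of the other 18, 3 met a narrower peak and 15 no replicate 1 peak at all. A replicate 1 peak of any width met 78.6% (67.1 to 87.5%) of the broad replicate 2 peaks and 89.2% of the narrower ones, an order opposite to that of the domains of replicate 1. The widest of the 15 had 15367 bp and a score of 493.24, on III at 13583984 to 13599350. Next came 11997 bp on chromosome I at 15059803 to 15071799, near the right end, where the ribosomal DNA repeats of this species lie. It scored 3100, as did 7981 bp on chromosome I at 10945496 to 10953476. After these came 7648 bp on V at 10605218 to 10612865 (score 3030.63) and 7335 bp on III at 2496301 to 2503635 (1678.29). Series-level peaks of 5000 bp or more numbered 33, of which 29 met a broad domain and 4 no replicate 1 peak. Windows of their widths at random positions would meet a broad domain in 6.54% of cases, and 21.5% of all series-level peaks met one. The series-level list may rest on the same reads as replicate 1.

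The 3 narrowest domains measured 5006 bp on V at 16591694, 5009 bp on X at 4958501 and 5011 bp on II at 7620457. Replicate 2 covered 70.5, 76.5 and 54.8% of them, and the series-level list 75.4, 63.2 and 54.4%. The 3 widest peaks below the limit measured 4998 bp on II at 15193040, 4996 bp on chromosome I at 12735351 and 4978 bp on chromosome I at 12042258. Replicate 2 covered 27.6 and 50.9% of the first 2 of these and did not touch the third, and the series-level list covered 38.0, 45.1 and 38.8%. On both measures these 3 domains were above these 3 peaks, but the whole width classes beside the limit lay closer together. Replicate 2 covered 37.9% of the length of the 230 peaks of 4000 to under 5000 bp. It covered 38.4% of that of the 131 domains of 5000 to under 6000 bp. The series-level list covered 44.8 and 48.7% of the length of these classes.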

How the data were processed

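Only peak lists were used. The submitters' processing notes name BWA, with no version, and ce10. Per the file headers, coordinates are in WormBase WS220, and the source fields name MACS for each ChIP library and MACS v2 for the series-level list. Peak thresholds, use of the input libraries and the making of the series-level list: not given in the sources used here. Beside its first and last base, a deposited peak has a score, whose scale is not stated. Per the labels' protocols, ground worms were fixed with 1% formaldehyde for 10 min.

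Each chromosome was taken to end at the last base of its last peak in any of the 3 lists. Overlap means at least 1 bp unless stated. Random placement was not drawn: the share of all start positions at which a window of equal width meets a peak was counted exactly. Intervals of shares are 95% exact Clopper-Pearson ones. They cover counting error only, as if each peak were independent. Regions are not replicates, and only replicate 2 is independent of the rule, so no p-values are given. The members, lists and thresholds were chosen with earlier results of these data known. Named regions followed a fixed rule: the 12 widest domains, the widest per chromosome, the 5 widest without a replicate 2 peak, the extremes of cover and of series-level peak number, those next to the width limit, the 3 closest pairs, and the 5 widest replicate 2 peaks that touch no domain. Runs of domains, windows and the domains near chromosome ends were chosen after their values were seen. Overlap arithmetic was tested on simulated data. Python 3.11.15, numpy 2.4.6, pandas 2.3.3, scipy 1.17.1 and matplotlib 3.10.9 were used. The number of reads per library is unknown, so no depth entered any comparison.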

Additional observations from a re-analysis of the deposited data

Results flagged for a closer look

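A peak of replicate 1 that met the width limit lay outside the nuclear chromosomes, in data that entered no comparison. It was 13724 bp wide, on the mitochondrial genome from 2 to 13725, with a score of 3230.05. No input value was set beside it.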

How the results depend on the processing

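Of 72 alternatives to 9 values, 47 stayed within the interval of the value or, where it has none, within 1.5 times of it, and 25 moved; 6 were added after the data were seen. The share of domains with a replicate 2 peak (83.6%) was 78.2, 88.0 and 93.3% with width limits of 4000, 6000 and 10000 bp, 43.8% when 50% of the domain had to be covered, 56.4% at the middle base, 68.5% in the central 1000 bp, 64.0% with the upper 50% of replicate 2 by score and 89.8% among peaks scoring 3100 or more. It exceeded that of narrower peaks in 10 of 12 settings. The exceptions were peaks scoring 3100 or more, and broad peaks of replicate 2 read in replicate 1: there 78.6% of 70 were met and 76.8% of their length was covered, 40.0% lay in arms, and the median spacing was 1021 kb. In both, the covered length was also lower for broad than for narrower peaks (49.1 against 60.1%, and 76.8 against 86.8%). The cause was not tested. The share with a series-level peak was 60.9% by 50% cover, 67.5% at the middle base, 94.1% in the central 1000 bp and 98.6% with the upper 50% of that list, which also left 3.05 peaks per domain. At 4000 bp there were 652 domains, spaced by 81.4 kb; at 10000 bp there were 75, spaced by 716.3 kb, with 8.59 series-level peaks each. The arm share was 50% with arms of 33% on each side and 22.2% without X, below that of narrower peaks in all 10 settings. Leaving out a replicate was not run as such, since the domains come from replicate 1 and are read in replicate 2; exchanging their roles stands in its place. No paired analysis was possible because the input libraries entered no comparison and no result comes from a test. Unknown depth limits any reading of domains without a replicate 2 peak: such a site was not detected in that list, which does not show that it was unoccupied.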
